A study of Mus musculus with 2 samples.

Results

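The Toll-like receptors described here are Tlr1, Tlr2, Tlr3, Tlr4, Tlr7, Tlr8, Tlr9, Tlr11, Tlr12 and Tlr13, chosen by gene symbol. They are 10 of the 32285 genes in the deposited tables, and all 10 were found. Their unique molecular identifiers (UMIs, 1 per captured RNA molecule) were summed per cell type and library in viable CD45+ (white blood) cells of the host, sorted from subcutaneous B16-F10 tumours on day 14. B16-F10 is a mouse melanoma cell line. The FDPS-knockout tumours carried a knockout of farnesyl diphosphate synthase, which makes isoprenoid precursors of cholesterol and of protein prenyl groups, and the control tumours, labelled WT, carried none. Each group had 3 tumours and gave 1 library, with no map from cells to tumours. There were thus 2 libraries and no replicates, and what is compared is one library with another. No test between groups was possible, and every interval covers counting error only. The host strain, sex and age, and the number of knockout clones, are not given in the sources used here.

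Toll-like receptors are membrane proteins that recognise conserved molecules of microbes and some nucleic acids of the host. Tlr1, Tlr2 and Tlr4 act at the cell surface, where Tlr2 pairs with Tlr1 to bind lipoproteins and Tlr4 binds bacterial lipopolysaccharide. Tlr3 binds double-stranded RNA, Tlr7 and Tlr8 sense products of single-stranded RNA, Tlr9 senses DNA with unmethylated CpG, and Tlr13 senses bacterial ribosomal RNA, all inside endosomes. Tlr11 and Tlr12, which humans lack as working genes, bind profilin of the parasite Toxoplasma. Most of these receptors signal through the adaptor Myd88, and Tlr3 signals through Ticam1.

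After filtering, 8062 cells of the knockout library and 8595 cells of the control library were used. The median UMI count over all barcodes was 10732.5 in the knockout library, against 12252 in the control library. The libraries shared 30 cell barcode sequences. Cells were assigned to types by marker genes cell by cell, and 1050 knockout and 790 control cells stayed unassigned. Fdps, the targeted gene, was at 89.3 CPM (UMIs scaled to the summed UMIs of the class) in melanoma cells of the knockout library, against 395 CPM in those of the control library. It was also lower in host cells, for example 23.9 CPM in knockout and 77.6 CPM in control T cells, so its level does not check the label by itself. The sort should remove melanoma cells, and 18 knockout and 407 control melanoma cells were gated.

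The compared cell types were neutrophils (87 knockout and 114 control cells), monocytes (361 and 1031), macrophages (613 and 2968), cells between monocytes and macrophages in their markers (123 and 234), type 2 conventional dendritic cells (cDC2, 447 and 151), type 1 conventional dendritic cells (cDC1, 298 and 159), mature dendritic cells (119 and 152) and B cells (127 and 143). Plasmacytoid dendritic cells (pDC, 153 and 30) and mixed phagocytes (67 and 18) held under 50 cells in the control library, so their levels are given without a call. In each named type the 10 genes with the largest fold over other cells held no marker of another type. Those of the cells between monocytes and macrophages and of mixed phagocytes held no marker of any type. Those of mixed phagocytes included the antibody genes Igkc, Jchain and Ighm, and those of monocytes were headed by the antibody gene Iglc1. The classes were not equal in content between libraries. Monocyte markers summed to 1658 CPM in knockout and 723 CPM in control macrophages, and cDC2 markers to 479 CPM in knockout and 69.3 CPM in control macrophages. The part of these differences in the receptor levels was not tested.

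By GENCODE vM21 (GRCm38), Tlr11 lies on chr14:50357914-50363663 (plus strand), Tlr3 on chr8:45395665-45411080 (minus), Tlr2 on chr3:83836272-83841767 (minus) and Tlr13 on chrX:106143204-106160493 (plus), and Tlr7 and Tlr8 are also X-linked. Promoter windows were found for 8 of the 10 receptors in the RefSeq table (GRCm38.p6, 250 bases before to 50 after the transcription start). Those of Tlr11 and Tlr3, which shared cDC1 as their highest class and differed elsewhere, and of Tlr2 and Tlr13, which differed in opposite directions in macrophages, are shown 5′ to 3′. Capitals mark matches to an interferon-stimulated response element core (GAAA, 2 free bases, GAAA), an ETS and IRF composite element (GGAA, 2 free bases, GAAA), a PU.1 core (GAGGAA), an AP-1 site (TGANTCA), an NF-kappaB site (GGG, 2 free bases, TTTCC), a BATF and IRF composite element (GAAA followed directly by the AP-1 site, so that it contains one) or a RUNX site (TGTGGT) on either strand.
Tlr11, chr14:50357664-50357963, plus strand: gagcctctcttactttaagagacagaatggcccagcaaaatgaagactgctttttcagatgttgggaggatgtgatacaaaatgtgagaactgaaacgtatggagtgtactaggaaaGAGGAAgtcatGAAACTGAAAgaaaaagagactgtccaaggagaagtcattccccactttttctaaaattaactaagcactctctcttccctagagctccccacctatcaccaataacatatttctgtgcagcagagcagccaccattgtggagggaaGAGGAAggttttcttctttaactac
Tlr3, chr8:45410331-45410630, minus strand: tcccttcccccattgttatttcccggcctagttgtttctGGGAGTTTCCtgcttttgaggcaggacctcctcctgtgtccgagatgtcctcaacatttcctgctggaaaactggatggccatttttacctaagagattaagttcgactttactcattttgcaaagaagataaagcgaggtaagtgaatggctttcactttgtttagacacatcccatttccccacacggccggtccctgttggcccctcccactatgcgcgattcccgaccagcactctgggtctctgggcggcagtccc
Tlr2, chr3:83841559-83841858, minus strand: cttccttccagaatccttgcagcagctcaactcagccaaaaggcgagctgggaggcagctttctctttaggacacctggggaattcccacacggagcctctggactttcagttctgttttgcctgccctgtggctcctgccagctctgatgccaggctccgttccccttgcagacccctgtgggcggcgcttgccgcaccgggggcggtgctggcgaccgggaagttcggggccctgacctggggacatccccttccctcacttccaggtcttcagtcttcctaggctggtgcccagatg
Tlr13, chrX:106143025-106143324, plus strand: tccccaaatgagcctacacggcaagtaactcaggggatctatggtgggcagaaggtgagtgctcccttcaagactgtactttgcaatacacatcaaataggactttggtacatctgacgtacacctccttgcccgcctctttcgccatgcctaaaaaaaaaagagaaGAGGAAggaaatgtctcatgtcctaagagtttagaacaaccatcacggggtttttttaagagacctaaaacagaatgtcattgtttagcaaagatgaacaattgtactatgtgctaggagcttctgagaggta
The Tlr11 window held 1 response element core, which 3.44% of all 32851 windows held, and 2 PU.1 cores, of which at least 1 stood in 28.3% of windows. The Tlr3 window held 1 NF-kappaB match, against 1.63% of windows, and the Tlr13 window 1 PU.1 core. The Tlr2 window held none of these 7 motifs. A C/EBP site (TTNNGNAA, in 40.7% of windows) stood in all 4 windows, and an E-box (CAGNTG, in 51.4%) in those of Tlr11, Tlr2 and Tlr13. A match describes letters only and is not evidence of binding.

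Each receptor had its own pattern over cell types. Tlr2, Tlr4 and Tlr13 were highest in neutrophils, Tlr3 and Tlr11 in cDC1, Tlr7, Tlr9 and Tlr12 in pDC, Tlr8 in macrophages and Tlr1 in B cells, by the mean of both libraries. In T cells, which served as the background for free RNA, the highest receptor was Tlr1, at 4.25 CPM in the knockout library and 2.02 CPM in the control library. UMI levels were not compared between genes.

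**Figure D1:**
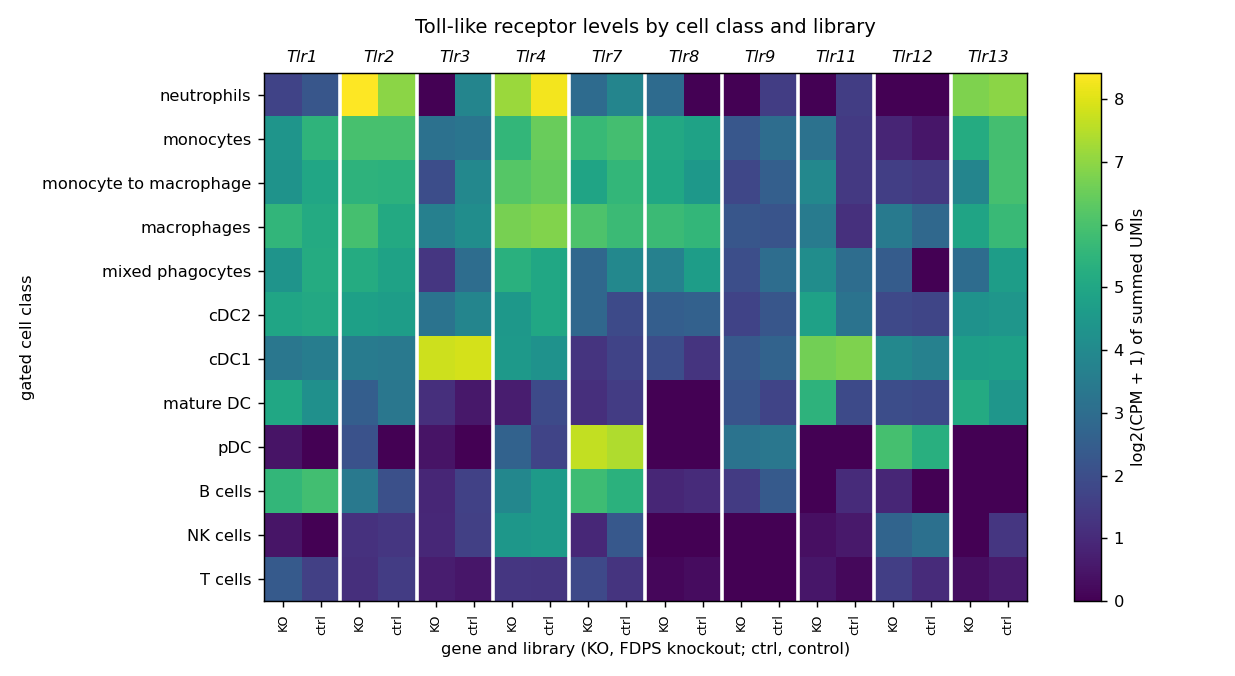
Levels of the 10 receptors, as log2(CPM + 1) of summed UMIs, by gated cell class (rows) and library (columns, the FDPS knockout left of the control for each gene). Tlr3 stands out in cDC1 (221 CPM in the knockout library and 237 CPM in the control library) and Tlr7 in pDC (201 and 172 CPM).

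Among the surface receptors, Tlr2 reached 342 CPM (95% interval 290 to 401) in knockout neutrophils and 122 CPM (94.5 to 156) in control neutrophils. Its next class was monocytes, at 61.9 CPM in the knockout library and 62.0 CPM in the control library. Tlr4 reached 140 CPM (108 to 179) in knockout neutrophils and 307 CPM (262 to 358) in control neutrophils. Macrophages followed for Tlr4, at 103 CPM (96.5 to 111) and 112 CPM (110 to 115), so that neutrophils and macrophages were apart in the control library and their intervals met in the knockout library. Tlr1 was at 46.8 CPM in knockout and 57.6 CPM in control B cells, and at 45.7 CPM in knockout and 34.1 CPM in control macrophages. The B cell and macrophage levels of Tlr1 overlapped within the knockout library.

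Of the endosomal receptors, Tlr3 was low outside cDC1. Macrophages, the next class, had 11.8 CPM of Tlr3 in the knockout library and 16.3 CPM in the control library, so that the cDC1 mean was 16.4 times theirs. Tlr7 was at 201 CPM (185 to 219) in knockout pDC and 172 CPM (136 to 216) in control pDC, followed by macrophages with 66.6 and 52.0 CPM, monocytes with 50.6 and 58.3 CPM and B cells with 54.6 and 40.8 CPM. The order of these 3 by their mean was not the order in each library, monocytes being above macrophages in the control library and below B cells in the knockout library. Tlr8 was at 52.5 CPM in knockout and 46.4 CPM in control macrophages and at 32.7 CPM in knockout and 27.6 CPM in control monocytes, and macrophages were above monocytes in both libraries beyond their intervals. Tlr9 did not reach 10 CPM as a mean in any class. Its highest values were 8.28 CPM (22 UMIs) in knockout pDC and 9.20 CPM (4 UMIs) in control pDC, whose intervals met those of monocytes (3.88 CPM in the knockout library and 7.02 CPM in the control library).

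Tlr13 was at 111 CPM in knockout and 122 CPM in control neutrophils, and at 35.5 CPM in knockout and 58.9 CPM in control monocytes. It had no UMI in pDC or B cells of either library, which allows up to 1.13 CPM in knockout pDC, 6.90 CPM in control pDC, 2.60 CPM in knockout B cells and 3.14 CPM in control B cells. The profilin receptors had different classes. Tlr11 was at 98.3 CPM (90.7 to 106) in knockout cDC1 and 111 CPM (101 to 123) in control cDC1, with no UMI in pDC and the same limits there. Tlr12 was at 60.6 CPM (51.6 to 70.7) in knockout pDC and 39.1 CPM (22.8 to 62.6) in control pDC, and at 14.1 CPM in knockout and 11.9 CPM in control cDC1.

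Every cell was also thinned to 3000 UMIs, with shallower cells left out, and the share of cells with a UMI was taken. The class with the largest share was the class with the highest level in both libraries for 7 of 10 receptors. The exceptions were Tlr4 in the knockout library (27.2% of macrophages and 25.6% of neutrophils), Tlr12 in the control library (3.95% of cDC1 and 3.33% of 30 pDC) and Tlr1 in the control library (16.7% of 18 mixed phagocytes and 13.7% of B cells). A Tlr3 UMI was present in 40.1% (exact 95% interval 34.3 to 46.0) of 282 knockout cDC1 and 44.1% (36.0 to 52.4) of 152 control cDC1, against 0.107% of knockout and 0.336% of control T cells. A Tlr11 UMI was present in 24.1% of knockout and 25.7% of control cDC1, against 0.0801% of knockout T cells and none of 2082 control T cells (exact interval up to 0.177%). Without thinning, 93.0% of knockout and 96.2% of control cDC1 had a UMI of at least 1 of the 10 receptors.

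Receptor UMIs also stood above the T cell level in cells outside these types. Tlr4 was at 21.0 CPM (163 UMIs) in knockout and 23.1 CPM (46 UMIs) in control NK cells, and a Tlr4 UMI was present in 5.78% and 5.74% of thinned NK cells, against 0.481% of knockout and 0.672% of control T cells. The melanoma cells had Tlr3 at 34.5 CPM in the knockout library and 27.5 CPM in the control library, and Tlr4 at 34 and 351 UMIs (18.1 CPM in the knockout library).

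The level of each receptor was then compared between libraries in the 8 types with at least 50 cells in each. A receptor entered where its mean was at least 10 CPM, and was called where the ratio of CPM + 1 was past 1.5-fold, a threshold of size and not of error. Of 39 pairs of receptor and cell type, 6 were called higher and 10 lower in the knockout library, and 23 lay within 1.5-fold. Among all genes with a mean of at least 10 CPM, 19.7% were higher and 14.6% lower over the 8 types pooled. By type, 13.7% to 25.7% were higher and 7.91% to 28.9% lower. These genes were not matched to the levels of the receptors.

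**Figure D2:**
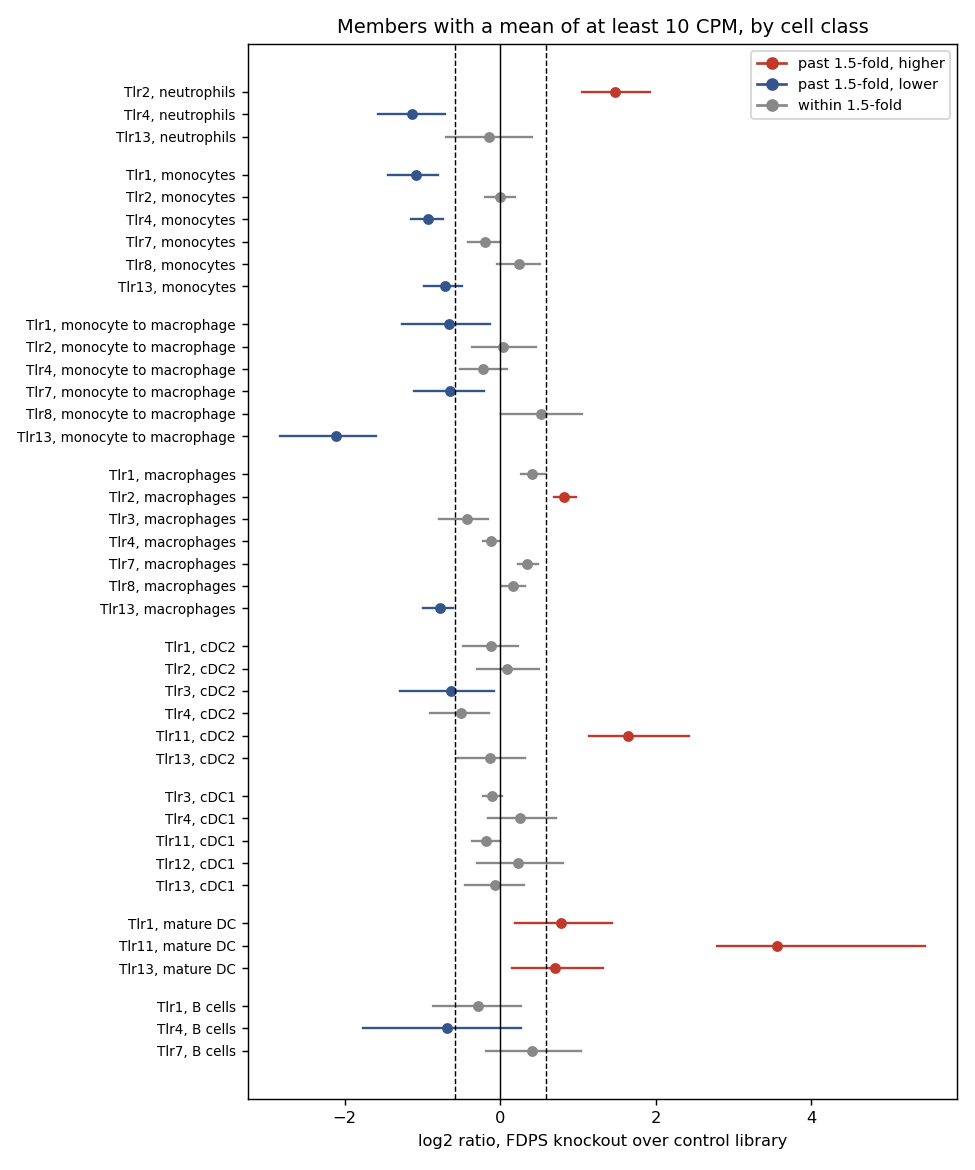
Log2 ratio of the FDPS-knockout over the control library for the 39 pairs of receptor and cell type with a mean of at least 10 CPM. Points are ratios of CPM + 1, bars exact 95% intervals of the plain ratio for counting error, and dashed lines 1.5-fold; Tlr11 in mature DC lies farthest to the right, at 3.56.

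Tlr11 was the receptor with the widest difference. In mature DC it had 73 UMIs (42.9 CPM, 33.7 to 54.0) in the knockout library and 6 UMIs (2.73 CPM, at most 5.95) in the control library, a ratio of 15.7 (6.88 to 44.2). Its UMIs came from 29 of 119 knockout and 5 of 152 control mature DC, and the 5 cells richest in it gave 39.7% of the knockout UMIs. In cDC2 it was at 27.5 CPM (222 UMIs) in the knockout library and 8.15 CPM (24 UMIs) in the control library, a ratio of 3.38 (2.21 to 5.38). After thinning, a Tlr11 UMI was present in 11.5% of knockout and 0.662% of control mature DC, and in 9.98% of knockout and 2.05% of control cDC2. The intervals of the libraries did not meet in either type at this depth, but met in both with cells thinned to 2000 UMIs. The shares were then 7.69% (3.58 to 14.1) of knockout and 1.32% (0.160 to 4.67) of control mature DC. In cDC2 they were 6.82% (4.65 to 9.59) and 2.03% (0.420 to 5.81).

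In cDC1, the type where Tlr11 is highest, the libraries lay together, with a ratio of 0.883 (lower bound 0.777). In monocytes and macrophages Tlr11 was below the 10 CPM mean and so outside the count, but its UMIs differed between libraries there too. It was at 10.4 CPM (84 UMIs) in knockout and 1.25 CPM (80 UMIs) in control macrophages, a ratio of 8.34 (6.07 to 11.5), and at 7.96 CPM (39 UMIs) in knockout and 1.67 CPM (20 UMIs) in control monocytes, a ratio of 4.76 (2.71 to 8.62). The cells between monocytes and macrophages had 14.2 CPM in the knockout library and 1.64 CPM in the control library. Tlr11 UMIs were thus higher in the knockout library in these 5 phagocyte and dendritic types outside cDC1 and close to the control level in cDC1. The background T cells differed the same way at a far lower level, with 25 Tlr11 UMIs (0.435 CPM) in the knockout library and 7 (0.132 CPM) in the control library, a ratio of 3.30 (1.39 to 9.03).

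**Figure D3:**
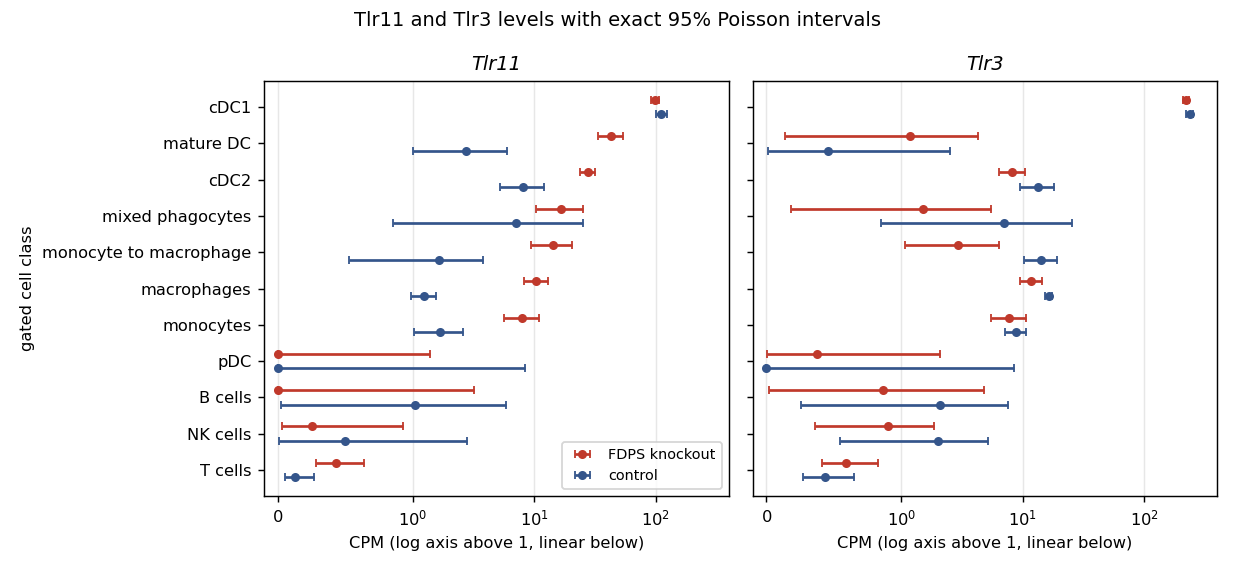
CPM of Tlr11 (left) and Tlr3 (right) by cell class in the FDPS-knockout (red) and control (blue) libraries, with exact 95% Poisson intervals. For Tlr11 the libraries meet in cDC1 (98.3 CPM in the knockout library and 111 CPM in the control library) and separate in mature DC (42.9 and 2.73 CPM) and macrophages (10.4 and 1.25 CPM), whereas Tlr3 in macrophages is lower in the knockout library (11.8 and 16.3 CPM).

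Markers of cDC1 moved with Tlr11 in mature DC but not in every type, and their part in its level was not tested. The 7 cDC1 markers summed to 419 CPM in knockout and 107 CPM in control mature DC, and Xcr1, the chemokine receptor that defines cDC1, was at 12.4 and 0.456 CPM, against 271 CPM in knockout and 436 CPM in control cDC1. Clec9a, another of the 7, was at 62.3 and 32.8 CPM in mature DC. The 7 markers summed to 645 CPM in knockout and 836 CPM in control macrophages, and to 897 and 1082 CPM in cDC2. They summed to 445 and 352 CPM in monocytes and to 467 and 291 CPM in the cells between monocytes and macrophages. Single markers went apart in macrophages, with Xcr1 at 2.60 CPM in the knockout and 14.4 CPM in the control library and Clec9a at 17.2 and 4.96 CPM. The sum is not particular to cDC1, being 672 CPM in knockout and 527 CPM in control B cells. The Tlr11 UMIs per Tlr3 UMI differed between types, and the cause was not tested. There were 0.444 Tlr11 UMIs per Tlr3 UMI in knockout and 0.469 in control cDC1. Mature DC held 36.5 Tlr11 UMIs per Tlr3 UMI in the knockout library, from 2 Tlr3 UMIs, and cDC2 held 3.36 in the knockout library, against 0.615 in the control library. In macrophages this ratio was 0.884 in the knockout library, against 0.0768 in the control library. With free RNA subtracted, Tlr11 was at 44.1 CPM in knockout and 2.70 CPM in control mature DC and at 10.4 and 1.18 CPM in macrophages.

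Tlr2 and Tlr4 differed in opposite directions in neutrophils. Tlr2 was 2.79 times as high in the knockout library (2.08 to 3.79, from 154 knockout and 65 control UMIs), and Tlr4 was 0.456 times as high (0.335 to 0.613, from 63 and 163 UMIs). Tlr13, the third receptor above 10 CPM in neutrophils, was at a ratio of 0.907 (0.615 to 1.33). After thinning, a Tlr2 UMI was present in 44.9% (33.6 to 56.6) of knockout and 24.5% (16.5 to 34.0) of control neutrophils. A Tlr4 UMI was present in 25.6% (16.4 to 36.8) of knockout and 42.2% (32.4 to 52.3) of control neutrophils. For both receptors these intervals met. The 5 cells richest in Tlr4 gave 49.2% of its knockout and 21.5% of its control UMIs, and those richest in Tlr2 27.3% and 30.8%. Among all genes tested in neutrophils, 20.1% were called higher and 28.9% lower, so 1 higher and 1 lower of 3 receptors is close to the background. Where types were taken from clusters instead, Tlr4 in neutrophils was at 197 CPM in the knockout library and 277 CPM in the control library and was no longer called, while Tlr2 was at 358 and 125 CPM.

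In monocytes, Tlr1, Tlr4 and Tlr13 were called lower among 6 receptors tested, against 10.6% of all genes, and none higher, against 19.8%. Tlr1 was at 20.2 CPM in knockout and 43.8 CPM in control monocytes, Tlr4 at 46.5 and 89.3 CPM, and Tlr13 at 35.5 and 58.9 CPM. Tlr2, Tlr7 and Tlr8 lay within 1.5-fold, with ratios of 0.998, 0.868 and 1.18. None of the 3 calls held with types taken from clusters, where Tlr1 was at 38.7 CPM in knockout and 45.5 CPM in control monocytes, Tlr4 at 55.9 and 83.6 CPM, and Tlr13 at 56.7 and 52.5 CPM, the other way round. Tlr4 thus kept its direction, just inside the 1.5-fold limit. Tlr8 in monocytes was called higher with clusters, at 49.1 CPM in the knockout library and 31.4 CPM in the control library, and with a stricter gate, at 42.3 and 26.1 CPM. Tlr7 turned to ratios of 1.43 and 1.27 under these alternatives and was not called.

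In the cells between monocytes and macrophages, Tlr13 was at 13.2 CPM (27 UMIs) in the knockout library and 60.3 CPM (184 UMIs) in the control library, a ratio of 0.219 (0.141 to 0.330). Tlr1 (19.1 CPM in knockout and 30.8 CPM in control cells) and Tlr7 (29.4 and 46.2 CPM) were also called lower, so that 3 of 6 receptors were, against 17.0% of all genes. None was called higher, against 21.6%. With types taken from clusters this class held 160 knockout and 14 control cells and could not be compared.

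In macrophages, Tlr2 was at 60.7 CPM (490 UMIs) in the knockout library and 34.0 CPM (2181 UMIs) in the control library, a ratio of 1.78 (1.61 to 1.97). Tlr13 was at 29.2 CPM (236 UMIs) in knockout and 50.7 CPM (3249 UMIs) in control macrophages, a ratio of 0.577 (0.503 to 0.659). The other 5 of 7 receptors tested lay within 1.5-fold, Tlr4 among them with 103 and 112 CPM, and 18.8% of all genes were called higher and 18.4% lower. With types taken from clusters, Tlr2 was at 53.9 and 33.0 CPM and stayed called, and Tlr13 was at 40.2 and 52.1 CPM and did not. There, 4 more receptors were called higher in macrophages: Tlr1 (67.7 CPM in the knockout library and 33.1 CPM in the control library), Tlr7 (108 and 51.8 CPM), Tlr8 (81.2 and 44.5 CPM) and Tlr12 (15.7 and 5.92 CPM). The clusters put 331 knockout and 3511 control cells in macrophages and 760 knockout and 20 control cells in mixed phagocytes, so the macrophage class itself was drawn differently in the libraries.

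Monocytes and macrophages were also combined and split by state. A cell that met more than 1 state took the earliest in the order given here. The state limits were raw UMIs, and the median UMI count was 10393 in knockout and 19067.5 in control macrophages. Cells with dividing-cell genes numbered 75 in the knockout library, against 1004 in the control library, those with Cd163 or Cd209f 107 and 21, those with Spp1 or Arg1 102 and 1611, and the others 813 and 1597. Tlr11 was higher in the knockout library in all 4 states, from 4.75 against 0.716 CPM in Spp1 or Arg1 cells to 11.8 against 1.42 CPM in dividing cells. In Cd163 or Cd209f cells this rests on 12 knockout UMIs and 1 control UMI, with a ratio interval of 0.675 to 195 that holds 1. Tlr13 was lower in all 4, from 11.0 against 86.7 CPM in Cd163 or Cd209f cells to 36.2 against 48.7 CPM in the others. The last of these, a ratio of 0.744 (0.656 to 0.841), lay within 1.5-fold.

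Tlr2 was not alike across states. It was at 60.1 CPM in knockout and 32.5 CPM in control cells with Spp1 or Arg1 and at 64.7 and 41.6 CPM in the others. In dividing cells it was at 42.0 and 41.3 CPM, and in Cd163 or Cd209f cells at 37.6 and 64.0 CPM, the opposite direction, from 48 knockout and 31 control UMIs.

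**Figure D4:**
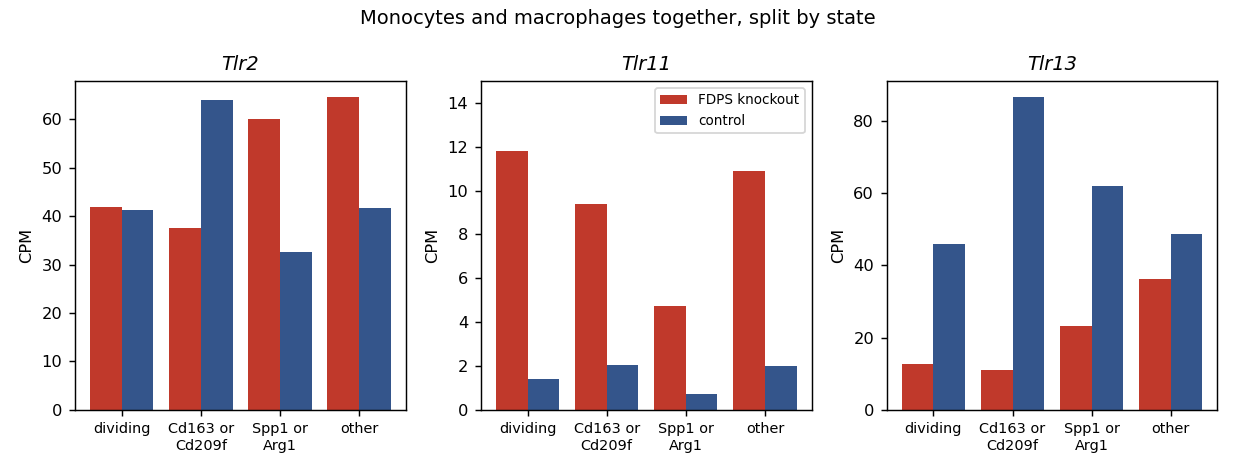
CPM of Tlr2, Tlr11 and Tlr13 in monocytes and macrophages combined and split into 4 states, with the FDPS-knockout library (red) left of the control library (blue) in each. Tlr11 is higher and Tlr13 lower in the knockout library in all 4 states, Tlr11 in Cd163 or Cd209f cells from only 1 control UMI, and Tlr2 changes direction in Cd163 or Cd209f cells (37.6 CPM in the knockout library and 64.0 CPM in the control library).

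Dendritic types differed among themselves. In cDC1 none of the 5 receptors tested was called, against 13.7% of all genes higher and 7.91% lower, and Tlr3 was at 221 CPM (1413 UMIs) in the knockout library and 237 CPM (835 UMIs) in the control library. In cDC2, 6 receptors were tested: Tlr11 was called higher and Tlr3 lower, against 19.2% and 10.5% of all genes. Tlr3 in cDC2 was at 8.18 CPM (66 UMIs) in the knockout library and 13.3 CPM (39 UMIs) in the control library, and was not called with types taken from clusters. In mature DC all 3 receptors tested were called higher, against 25.7% of all genes, and none lower, against 16.1%. Beside Tlr11, these were Tlr1 (31.2 CPM in the knockout library and 17.8 CPM in the control library) and Tlr13 (34.1 and 20.5 CPM). Receptors that pass the 10 CPM mean through the higher library alone must differ, which holds for Tlr11 in mature DC and cDC2, and those that pass through the control library alone likewise, which holds for Tlr3 in cDC2.

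In pDC, Tlr7 had a ratio of 1.17 (0.915 to 1.51), Tlr12 of 1.55 (0.938 to 2.73) and Tlr9 of 0.900 (0.306 to 3.59). Each of these intervals, which rest on 30 control cells, holds 1, so no ratio was apart from 1 beyond counting error. In B cells, Tlr4 was called lower among 3 receptors tested, against 11.1% of all genes, at 13.9 CPM (16 UMIs) in the knockout library and 23.0 CPM (22 UMIs) in the control library, with a ratio interval of 0.295 to 1.20 that holds 1. None was called higher, against 19.2%. Tlr1 and Tlr7 had ratios of 0.812 and 1.34.

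The genes around the receptors were read from 6 lists with 77 genes. Over the 8 types these gave 504 pairs of gene and type with a mean of at least 10 CPM, of which 94 (18.7%) were higher and 103 (20.4%) lower in the knockout library. Over all genes in the same 8 types pooled, 19.7% were higher and 14.6% lower, and each list is set against these shares. The share higher was thus near that of all genes. A recurrent difference was in Irf7, the interferon regulatory factor that acts below Tlr7 and Tlr9 and is itself interferon-induced. It was lower in 7 of 8 types, at 184 CPM in knockout and 474 CPM in control monocytes, 172 and 334 CPM in macrophages, and 72.3 and 166 CPM in cDC1. In pDC it was at 222 and 248 CPM. Irf3 lay within 1.5-fold in all 8 types. Socs1, an interferon-induced inhibitor of cytokine signalling, was lower in 7 of 8 types, for example at 24.0 CPM in knockout and 62.6 CPM in control macrophages.

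Nfkb1, Nfkb2, Rel and Relb, the NF-kappaB subunit genes other than Rela, were each higher in 3 of 8 types and lower in none, against 19.7% of all genes higher and 14.6% lower, for example Relb at 87.1 CPM in knockout and 32.4 CPM in control cDC1. Rela was higher in 1 type. Tnfaip3, the ubiquitin-editing inhibitor that NF-kappaB induces, was higher in 6 of 8 types, at 177 CPM in knockout and 77.6 CPM in control macrophages. Nfkbiz, which works with NF-kappaB on secondary response genes, was also higher in 6 of 8. Over the 9 inhibitors, 18 of 58 pairs were higher (31.0%, against 19.7% of all genes) and 9 lower (15.5%, against 14.6%). Over the 9 transcription factors, 13 of 72 were higher (18.1%) and 9 lower (12.5%), both close to the shares of all genes.

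**Figure D5:**
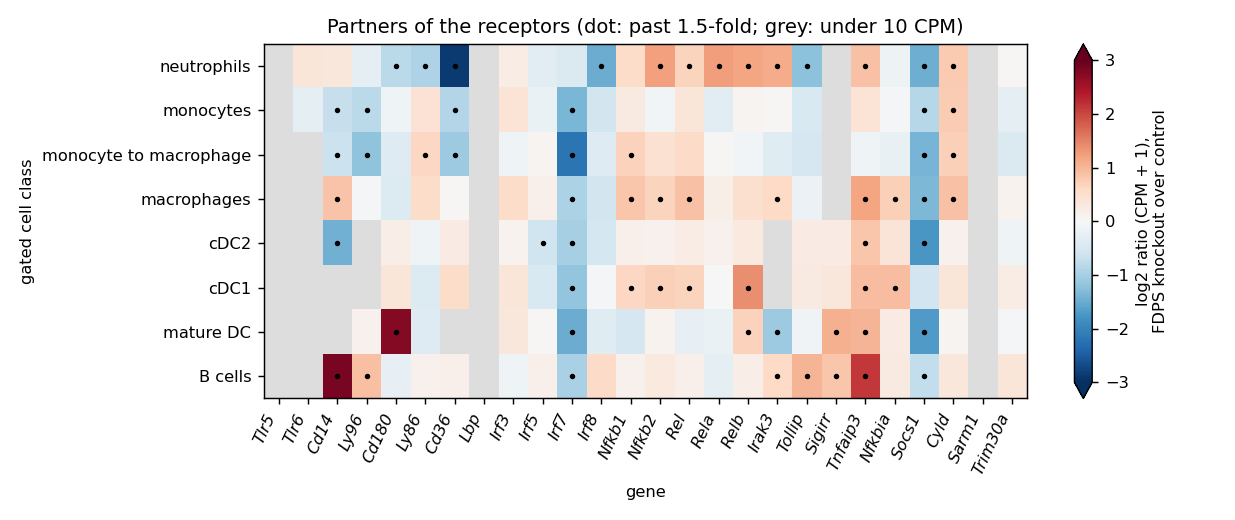
Log2 ratio of the FDPS-knockout over the control library for surface partners, transcription factors and inhibitors of Toll-like receptor signalling (columns) by cell class (rows). Dots mark ratios past 1.5-fold and grey cells a mean under 10 CPM; the Irf7 and Socs1 columns are blue with a dot in 7 of 8 classes, and Tnfaip3 is red with a dot in 6.

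Among endosomal proteases, which cut the endosomal receptors into their active form, Ctsl, Lgmn and Ctsb were lower in most types and Ctss was not. Ctsl was lower in all 6 types in which it was tested, at 170 CPM in knockout and 672 CPM in control macrophages. Lgmn was lower in 7 of 8 types, at 757 and 1822 CPM in macrophages, and Ctsb in 6 of 8. Ctss was lower in 2 of 8 types and within 1.5-fold in the other 6, at 2497 CPM in knockout and 2403 CPM in control macrophages. Unc93b1, the chaperone that brings these receptors to endosomes, was higher in 2 types, lower in none, and at 690 CPM in knockout and 514 CPM in control macrophages. In this list of 15 genes, 13 of 110 pairs were higher (11.8%, against 19.7% of all genes) and 35 lower (31.8%, against 14.6%). Beside these, the 8 macrophage markers summed to 10033 CPM in knockout and 13068 CPM in control macrophages, and their part was not tested.

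Adaptors and kinases mostly lay within 1.5-fold, in 118 of 147 pairs, with 18 higher (12.2%, against 19.7% of all genes) and 11 lower (7.48%, against 14.6%). Myd88 was lower in 4 of 8 types, at 60.0 CPM in knockout and 96.6 CPM in control monocytes and 44.7 and 81.2 CPM in cDC1. Among surface partners, 5 of 37 pairs were higher (13.5%, against 19.7% of all genes) and 10 lower (27.0%, against 14.6%). Cd14, which hands lipopolysaccharide to Tlr4, was lower in monocytes (200 CPM in the knockout library and 326 CPM in the control library) and higher in macrophages (176 and 96.6 CPM). Ly96, the subunit of Tlr4 that binds lipopolysaccharide, was at 30.0 CPM in knockout and 53.2 CPM in control monocytes.

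Response genes split, with 27 of 80 pairs higher (33.8%, against 19.7% of all genes) and 29 lower (36.2%, against 14.6%). Some of these pairs pass the 10 CPM mean through 1 library alone and so must differ, and they were not counted apart. Examples are Cxcl1 in neutrophils (6.67 CPM in the knockout library and 64.1 CPM in the control library) and Il6 in monocytes (25.9 and 3.59 CPM). The same filter was used for all genes. Il6 was at 26.8 CPM in knockout and 1.11 CPM in control macrophages and at 5.29 and 34.2 CPM in mature DC. In both types Il6 passes the 10 CPM mean through the higher library alone and so must differ. Mature DC also had more Tnf (190 CPM in the knockout library and 15.5 CPM in the control library) and more Il12b (1850 and 522 CPM), the cytokine subunit that Tlr11 signalling is known to induce in dendritic cells of mice. Their Il1b was at 46.5 CPM in the knockout library and 373 CPM in the control library. The part of Tlr11, and of the cDC1 markers that differed in mature DC, in these values was not tested. In B cells, Il1b was at 236 CPM in knockout and 6.28 CPM in control cells and Cd14 at 28.6 and 3.14 CPM. Both genes pass the 10 CPM mean there through the knockout library alone and so must differ. Beside these, monocyte markers summed to 712 CPM in knockout and 482 CPM in control B cells, and macrophage markers, the other way, to 343 and 456 CPM. The monocyte sum is not particular to monocytes, being 841 CPM in knockout and 935 CPM in control T cells. The part of either set in the B cell values was not tested.

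Genes with the pattern most like each receptor were ranked by Pearson's r over 19 points of cell class and library (log2 CPM, 11526 genes), which share libraries and depth. The closest were Ptgs2 for Tlr2 (r = 0.952), Slc2a1 for Tlr4 (0.944), 4930599N23Rik for Tlr13 (0.954), Fndc7 for Tlr11 (0.924), Adam15 for Tlr8 (0.919) and Ugcg for Tlr7 (0.918). Those of Tlr1 (Snx8, 0.896), Tlr12 (Atf6b, 0.895) and Tlr3 (Havcr2, 0.871) were less close. Tlr9 was too low to be ranked.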

How the data were processed

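The authors deposited whole-number UMI counts of genes in each cell barcode. Per the file headers, Cell Ranger 7.2.0 made them, on mm10 per the submitters' processing notes, and their gene annotation is not stated. The knockout library held 127186298 UMIs in 9130 barcodes and the control library 208936136 in 10882.

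Cells with at least 200 genes and under 10% mitochondrial UMIs were kept (8697 and 9415). Scrublet in scanpy 1.11.5 scored doublets. Its own threshold marked 0% and 1.63%, so the highest scores were removed at an expected rate that grows with the barcodes loaded (635 and 820 cells). A cell took the type whose markers scored highest (mean over markers of log-normalised level, capped at the 99.5th percentile of positive cells), with at least 3 markers detected and a margin of 0.05 over the next of 13 marker sets. Cells near more than 1 of monocytes, macrophages and cDC2 formed 2 classes of their own. States needed at least 2 UMIs of the named genes (4 for dividing cells).

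Summed counts were scaled to CPM. Intervals are 95% Poisson (levels), binomial on the 2 sums (ratios) and Clopper-Pearson (shares). Limits for 0 UMIs allow 3 counts. Gene overlaps and spans came from GENCODE vM21. The calls and intervals were tested on simulated Poisson counts, the model that the intervals assume. These held neither a gathering of UMIs in few cells nor variation between tumours, so the intervals were not checked against either. The receptors and all pathway genes were named by symbol from lists, and the genes given with values from the lists were picked after their values were seen. The receptors, lists and marker sets were chosen with earlier results of these data known. The margin, the 2 intermediate classes and the state limits were set after receptor levels under a margin of 0.1 had been seen, to assign more cells, and that margin with 4 markers is kept as an alternative. Analyses used Python 3.11.15. The 12 alternatives are in the closing section.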

Additional observations from a re-analysis of the deposited data

How the results depend on the processing

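With types from clusters of both libraries, 10 pairs were higher and 2 lower in the knockout library instead of 6 and 10, and 6 of 16 calls were kept. Of the 10 lost, 3 lay in the cells between monocytes and macrophages, which had too few control cells to compare; Tlr13 in monocytes turned to a log2 ratio of 0.11. A mean of at least 5 CPM gave 10 higher and 15 lower, and no filter 15 higher and 22 lower. A threshold of 2-fold gave 3 higher and 3 lower, also keeping 6 of 16. Giving every cell the same weight gave 8 higher and 5 lower, and a pseudocount of 5 CPM 6 higher and 6 lower. The stricter gate kept 11 of 16 calls. For the pathway lists, 2-fold gave 36 higher and 61 lower pairs instead of 94 and 103. Within Cd163 or Cd209f cells, Tlr2 in monocytes and macrophages had a log2 ratio of -0.75 against 0.59 in all. The causes were not tested.

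Tlr11 in mature DC (log2 2.63 to 3.89), Tlr11 in cDC2 (1.31 to 2.16) and Tlr2 in neutrophils (1.23 to 1.80) stayed called under all 12 alternatives. Tlr2 in macrophages (0.69 to 1.22) was lost at 2-fold alone. Both Tlr11 pairs pass the 10 CPM mean through the knockout library alone and so must differ. The alternatives rework the same 2 libraries and do not replace a replicate. All 10 receptors kept their highest class in 5 of the 6 alternatives that recompute levels; with clusters 9 did, Tlr1 being highest in the cells between monocytes and macrophages (14 control cells). Tlr4, with the longest span of the 10 (102.7 kb), and the short Tlr1, Tlr2, Tlr9, Tlr11 and Tlr12 lie in span classes with opposite shifts, and matching on span kept 15 of 16 calls. Tlr3 overlaps Gm45542 on the opposite strand. Depth limits Tlr9 (a mean under 10 CPM in every class) and the classes with few UMIs, where 0 UMIs allow up to 10.6 CPM in control mixed phagocytes, 6.90 CPM in control pDC, and 6.67 CPM in knockout and 5.65 CPM in control neutrophils. No paired analysis was possible because each group has 1 library, and for the same reason no library could be left out.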
